A study of Mus musculus with 8 samples.

Results

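The genes described here are 9 components of type I interferon signalling: the receptor chains Ifnar1 and Ifnar2, the kinases Jak1 and Tyk2, the transcription factors Stat2, Stat3 and Irf9, and the inhibitors Socs1 and Socs3. They were taken by name from the 55367 genes of a table of read counts, and all 9 were among the 15117 genes that passed the filter on low counts. The study used Neuro2a, an established line from a mouse neuroblastoma, and CRISPR activation (CRISPRa), a method in which a Cas9 without cutting activity is led by a guide RNA (sgRNA) and brings a transcriptional activator to a chosen site. The study's title names Scn2a, a sodium channel gene, and none of the 9 genes is its stated target. CRISPRa cultures received 750 ng of sgRNA plasmid with 750 ng of sadCas9-VP64 plasmid, which encodes the Staphylococcus aureus enzyme fused to the activator VP64. Control cultures, called no sgRNA, received sadCas9-VP64 alone in an amount the labels do not state. Both groups thus carried the activator, and the guide and the plasmid that brought it cannot be told apart. Poly(A)-selected RNA was sequenced, and the libraries with counts were replicates 2, 3 and 5 of CRISPRa and 2, 3 and 4 of no sgRNA. The labels do not say that replicates were separate cultures, so p-values measure the spread between these libraries, which may be technical.

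Type I interferons bind a receptor made of the IFNAR1 and IFNAR2 chains. The kinases TYK2 and JAK1, which sit on these chains, then phosphorylate STAT proteins, and a complex that holds STAT2 and IRF9 enters the nucleus and binds the interferon-stimulated response element (ISRE) of target genes. SOCS1 and SOCS3 are induced by cytokine signalling and inhibit it. STAT3 serves mainly the receptors of the interleukin-6 family and can also be phosphorylated after interferon.

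Total counts were between 29739422 and 34248514 per library. Replicate 5 of CRISPRa and replicate 4 of no sgRNA stood farther from their own groups than the other libraries did. Within CRISPRa, a chi-square over gene counts came to 4.87 per degree of freedom for replicates 2 and 3, and to 17.1 and 18.7 for replicate 5 against each of these. Within no sgRNA it came to 6.22 for replicates 2 and 3, and to 15.0 and 17.9 for replicate 4 against each of these. Mitochondrial genes took 1.25% to 1.3% of counts with CRISPRa and 1.04% to 1.22% in the controls. Of 14 markers of sympathoadrenal neuroblastoma, 13 had a mean of at least 1 CPM (counts scaled to the normalised library total), with summed levels of 3595 to 3926 CPM with CRISPRa and 4150 to 4480 CPM in the controls. Of these 4 were called, Phox2a at a log2 fold change of -0.69, Hand2 at -0.43, Prph at -0.26 and Chga at 0.33 (edgeR adjusted p 0.00204, 0.000507, 0.0093 and 0.0025). Of 9 macrophage markers, Cd68 alone reached 1 CPM, the list summed to between 0.853 and 2.25 CPM in any library, and Adgre1, Itgam and Cx3cr1 had 0 counts in all libraries. Of the 8 lymphoid markers and the 4 epithelial markers, none reached a mean of 1 CPM. Fibroblast markers summed to 121 to 125 CPM with CRISPRa and 110 to 124 CPM in the controls, with Col3a1 at 0. Within that list 3 were called in opposite directions, Col1a2 at a log2 fold change of -0.88, Pdgfra at -0.70 and Pdgfrb, which made up most of the sum, at 0.25 (edgeR adjusted p 0.00659, 0.00172 and 0.0376). Endothelial markers summed to 23.7 to 28.2 CPM with CRISPRa and 29.1 to 32.1 CPM in the controls, with Kdr at 0 and Cdh5 called at 2.04 (edgeR adjusted p 0.0105). Of all tested genes, 18.7% were called in either direction, at an adjusted p under 0.05. The part of these marker shifts in the results below was not tested.

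With CRISPRa, Irf9, Stat2, Socs1 and Stat3 rose, and the other 5 genes did not pass the test. The rise was 5.57-fold for Irf9, 3.99-fold for Stat2, 2.38-fold for Socs1 and 1.29-fold for Stat3. Genes were compared with edgeR's quasi-likelihood test on 3 libraries against 3, and a gene was called changed at a Benjamini-Hochberg adjusted p under 0.05 over all tested genes. Thus 4 of 9 members were called, all 4 higher, where 18.7% of all tested genes were called, 9.47% higher and 9.25% lower. The median log2 fold change was 0.28 over the 9 members and -0.0071 over all tested genes. The CPM values of the 2 groups did not overlap for 5 of the 9, the 4 called genes and Socs3, where the groups did not overlap for 36.4% of all tested genes. For each of these 5 the exact two-sided permutation test of mean CPM gave p = 0.1, the smallest that 3 against 3 allows. In RNA from whole cultures, a higher level in every cell and a response of only some cells cannot be told apart.

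**Figure D1:**
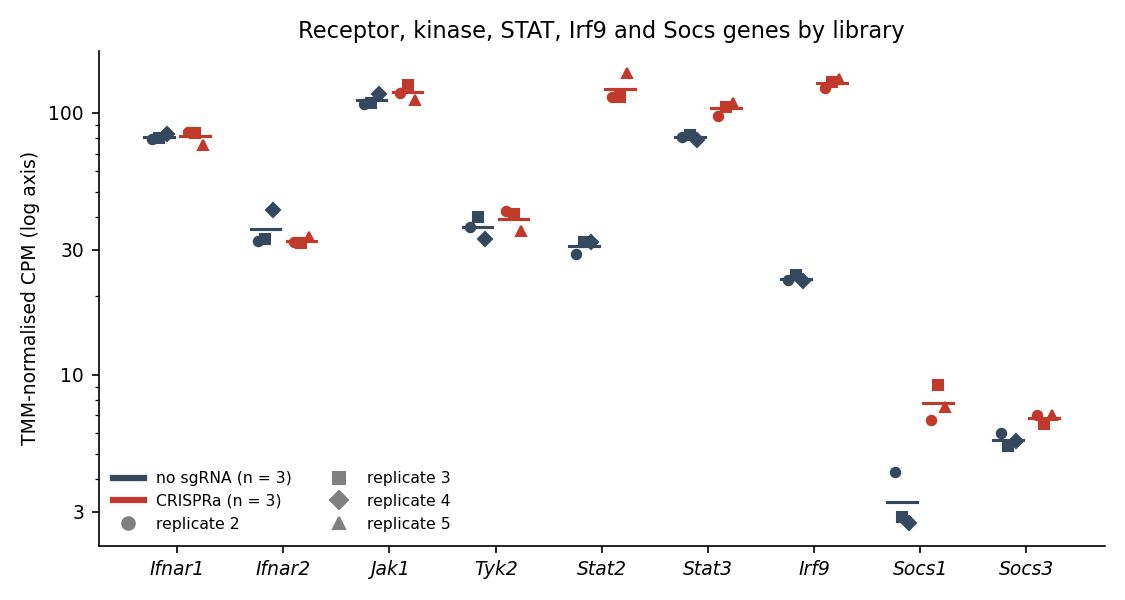
Normalised CPM of the 9 genes (log axis) in each of the 6 libraries, no sgRNA in dark blue and CRISPRa in red, with marker shapes for the replicate number and a line at the group mean. Stat2 and Irf9 stand between 22.9 and 32.1 CPM in the controls and between 115 and 142 CPM with CRISPRa, while the receptor and kinase genes overlap between groups.

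The receptor chains came first, since the cell's response to interferon begins with them. Ifnar1 (GRCm38 chromosome 16, 91485238 to 91507441, plus strand, protein coding) encodes the chain that binds TYK2. It stood at 84.9, 84.0 and 75.7 CPM in CRISPRa replicates 2, 3 and 5 and at 79.7, 80.0 and 83.2 CPM in no-sgRNA replicates 2, 3 and 4. The values of both groups interleave, with CRISPRa replicate 5 lowest. Its log2 fold change was 0.0095 (SE 0.071, edgeR adjusted p 0.946), and the interval of 2 SE on each side ran from -0.13 to 0.15. Ifnar2 (chromosome 16, 91372783 to 91405589, plus strand) encodes the chain that binds JAK1 and holds interferon most tightly. Its CPM was 32.1, 32.0 and 33.5 with CRISPRa and 32.4, 33.1 and 42.7 in the controls. No-sgRNA replicate 4 is the high value and the other 5 libraries lie close together. The difference on the log2 scale was -0.15 (SE 0.10, edgeR adjusted p 0.363), with an interval from -0.36 to 0.060, and it was -0.0097 without no-sgRNA replicate 4. The value of Ifnar2 is uncertain, as 9.46% of its exonic bases also belong to Gm21970, an annotated gene on the same strand that shares its sequence.

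Jak1 and Tyk2, the kinases of this receptor, were likewise not called. Jak1 (chromosome 4, 101152367 to 101265282, minus strand), which also serves many other cytokine receptors, was at 119, 128 and 112 CPM with CRISPRa and at 108, 109 and 118 CPM in the controls. The groups overlapped through CRISPRa replicate 5 and no-sgRNA replicate 4, the 2 libraries that stood apart. The log2 fold change was 0.10 (SE 0.070, edgeR adjusted p 0.343), with an interval from -0.037 to 0.24. On the other 4 libraries alone it was 0.19 (SE 0.058, edgeR adjusted p 0.0238), past the threshold. Tyk2 (chromosome 9, 21104068 to 21131243, minus strand) was at 42.1, 41.0 and 35.4 CPM with CRISPRa and at 36.8, 40.0 and 33.0 CPM in the controls, again with overlap. The log2 fold change was 0.11 (SE 0.096, edgeR adjusted p 0.464), with an interval from -0.081 to 0.30. It was 0.042 without no-sgRNA replicate 4 and 0.19 without CRISPRa replicate 5. Exons of 1700084C06Rik on the opposite strand cover 8.07% of its exonic bases, and whether counting used strand is not given in the sources used here.

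Stat2 and Irf9, whose proteins act together in the ISRE-binding complex, held the largest differences. Stat2 (chromosome 10, 128270559 to 128292849, plus strand) was at 115, 115 and 142 CPM with CRISPRa and at 28.8, 32.1 and 32.1 CPM in the controls. Every CRISPRa library lay far above every control, and replicate 5 was the highest. On the log2 scale the rise was 2.00 (SE 0.092, edgeR adjusted p 4.29e-10), and 122 of the 15117 tested genes had a larger one. Irf9 (chromosome 14, 55603571 to 55610030, plus strand), which gives the complex its DNA-binding specificity, was at 124, 131 and 135 CPM with CRISPRa and at 23.1, 24.0 and 22.9 CPM in the controls. The libraries of each group lay close together for this gene. On the log2 scale the rise was 2.48 (SE 0.073, edgeR adjusted p 1.49e-12), and 94 tested genes had a larger one. Leaving out any 1 library moved the log2 fold change of Stat2 between 1.90 and 2.06 and that of Irf9 between 2.46 and 2.52. Of the exonic bases of Irf9, 2.28% are shared with Rnf31 on the same strand.

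Stat3 differed less. Stat3 (chromosome 11, 100885098 to 100939540, minus strand) was at 97.7, 105 and 109 CPM with CRISPRa and at 80.9, 82.3 and 79.1 CPM in the controls. All CRISPRa libraries were above all controls, by a margin much smaller than for Stat2. Its log2 fold change was 0.37 (SE 0.068, edgeR adjusted p 0.00176), and 2153 tested genes had a larger one.

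Of the inhibitors, Socs1 was called and Socs3 was not. Socs1 (chromosome 16, 10782240 to 10785536, minus strand), which binds and blocks the catalytic domain of JAK kinases, had 232, 299 and 244 counts with CRISPRa and 130, 85 and 86 counts in the controls. These are 6.73, 9.16 and 7.52 CPM against 4.26, 2.86 and 2.72 CPM, low levels with wider relative spread than those of the other members. The log2 fold change was 1.25 (SE 0.21, edgeR adjusted p 0.000836), and it ran from 1.13 to 1.48 when 1 library was left out. Socs3 (chromosome 11, 117966079 to 117970047, minus strand), an inhibitor best known from interleukin-6 family receptors, had 243, 212 and 228 counts with CRISPRa and 183, 159 and 177 in the controls. On the normalised scale these were 7.05, 6.49 and 7.03 CPM against 6.0, 5.35 and 5.59 CPM, so that every CRISPRa library was above every control. The difference of 0.28 on the log2 scale did not pass the test (SE 0.16, edgeR adjusted p 0.243), with an interval from -0.034 to 0.59.

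**Figure D2:**
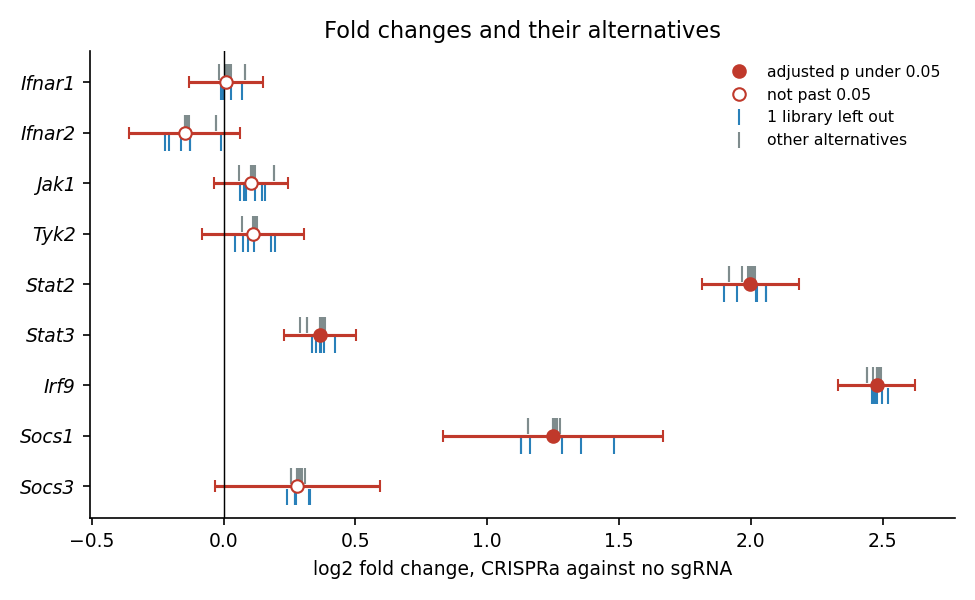
Log2 fold change of each gene between CRISPRa and no sgRNA with bars of 2 SE, filled where the adjusted p is under 0.05; blue ticks below give the values with 1 library left out and grey ticks above the other alternatives. Irf9, Stat2, Socs1 and Stat3 keep to the right of 0 throughout, while the ticks of Ifnar1 fall on both sides of it.

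Promoter sequence was read for these genes because several of them rose together. RefSeq windows on GRCm38.p6, from 250 bases before to 50 bases after each gene's start, were found for all 9 genes, 10 windows in all, 2 of them for Irf9. The ISRE core was searched as GAAANNGAAA and the gamma-activated site (GAS), the element bound by STAT dimers, as TTCNNNGAA, both on both strands. An ISRE core occurred in the windows of Stat2 and Socs1 and in none of the other 8, while 3.44% of all 32851 mouse windows of this length hold one. In Stat2 the match TTTCAGTTTC, the element read on the opposite strand, lies 222 to 213 bases before the start (chromosome 10, 128270276 to 128270285). In Socs1 the overlapping matches GAAAGAGAAA and GAAACCGAAA lie 83 to 74 and 77 to 68 bases before the start (chromosome 16, 10785604 to 10785619 together). The upstream parts of both windows are shown because they hold the ISRE letters, with the matches in capitals, beside that of Stat3, a called gene with neither motif.
Stat2, chr10:128270248-128270497, plus strand: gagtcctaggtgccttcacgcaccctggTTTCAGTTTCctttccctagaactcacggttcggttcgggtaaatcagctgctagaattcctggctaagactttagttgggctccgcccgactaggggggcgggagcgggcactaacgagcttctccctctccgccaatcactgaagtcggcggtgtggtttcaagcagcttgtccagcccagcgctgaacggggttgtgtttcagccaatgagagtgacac
Socs1, chr16:10785537-10785786, minus strand: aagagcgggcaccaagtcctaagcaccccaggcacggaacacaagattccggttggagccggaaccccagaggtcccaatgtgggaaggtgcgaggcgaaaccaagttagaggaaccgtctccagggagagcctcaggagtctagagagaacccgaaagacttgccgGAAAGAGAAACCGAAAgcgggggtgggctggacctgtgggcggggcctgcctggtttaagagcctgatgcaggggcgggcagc
Stat3, chr11:100939541-100939790, minus strand: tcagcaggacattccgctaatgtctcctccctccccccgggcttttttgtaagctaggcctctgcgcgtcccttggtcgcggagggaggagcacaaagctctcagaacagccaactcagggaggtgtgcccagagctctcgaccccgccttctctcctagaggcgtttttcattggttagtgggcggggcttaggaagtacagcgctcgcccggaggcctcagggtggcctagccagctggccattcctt

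The GAS letters were found in 3 of the 10 windows, against 8.30% of all windows. Socs3 had TTCTTAGAA, 154 to 146 bases before its start, Ifnar2 had TTCCTGGAA, 214 to 206 bases before, and Ifnar1 had TTCACGGAA, which begins 5 bases before its start. None of these 3 genes passed the test. Neither Irf9 window held either motif, although Irf9 had the largest rise of the 9. The 2 windows follow RefSeq starts at 55603985 and 55604579, both inside the Irf9 span of the count table, which begins at 55603571, so sequence before that first base was not covered. The Socs3 window likewise follows a RefSeq start at 117969366, inside a span that begins at 117970047 on the minus strand. The GAS match of Socs3 therefore lies within its span, and sequence before the span was not covered. Matching letters are a description of these windows and do not show that a factor binds there.

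Levels were compared between genes after dividing counts by exon length, as TPM, the length-scaled share of transcripts computed from the deposited counts and lengths. Without the guide the order of mean TPM was Jak1 (54.0), Ifnar1 (47.6), Ifnar2 (37.7), Stat3 (29.6), Tyk2 (18.7), Stat2 (18.3), Irf9 (15.1), Socs3 (6.83) and Socs1 (3.96). The ranges over the 3 libraries overlapped between neighbours in this order for Tyk2 and Stat2. With CRISPRa the order was Irf9 (87.9), Stat2 (76.2), Jak1 (60.5), Ifnar1 (49.99), Stat3 (39.8), Ifnar2 (35.6), Tyk2 (21.0), Socs1 (9.78) and Socs3 (8.64). Here the ranges of Irf9 and Stat2 overlapped, as did those of Socs1 and Socs3. Jak1 and the receptor chains thus had the highest levels of the 9 in the controls, and Irf9 and Stat2 stood above them with CRISPRa. These orders rest on the summed exon length of each gene, and the transcript forms present were not measured. The 9 genes summed to 389 ± 9.76 TPM with CRISPRa and 232 ± 0.557 TPM in the controls (SD, n = 3). Of these sums Stat2 and Irf9 made up 42.1% ± 2.40 and 14.4% ± 0.541 (SD, n = 3), and the other 7 genes summed to 225 ± 6.90 and 198 ± 1.72 TPM.

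**Figure D3:**
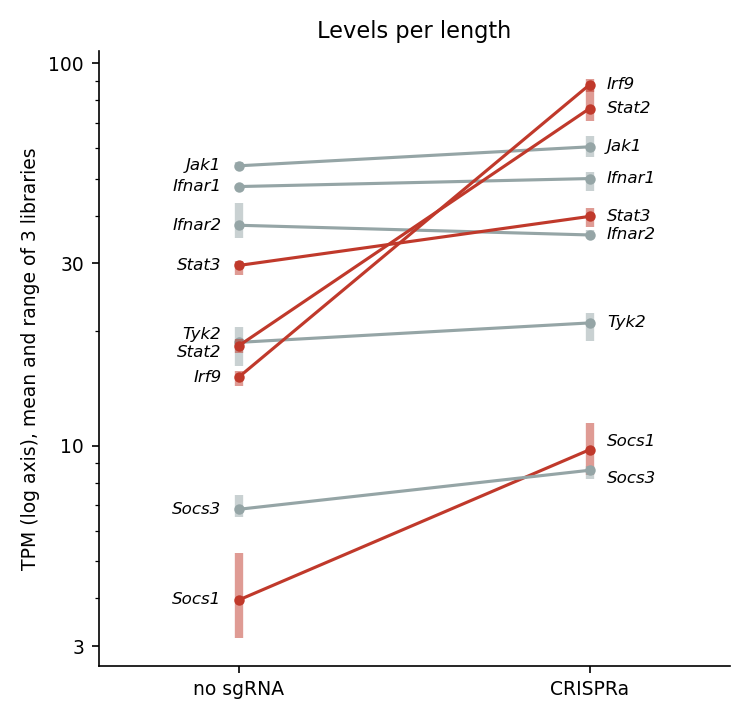
Mean TPM of the 9 genes in the 2 groups (log axis), with thick bars for the range of 3 libraries and red lines for genes past the adjusted threshold. Irf9 and Stat2 move from 15.1 and 18.3 TPM to the top of the order at 87.9 and 76.2 TPM.

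The balance within pairs of genes was taken as the ratio of their counts per length in each library, for 5 pairs set by role. Stat2 over Irf9 was 0.841, 0.797 and 0.958 with CRISPRa, against 1.13, 1.22 and 1.28 in the controls. Per summed exon length, Irf9 therefore exceeded Stat2 in each CRISPRa library and lay below it in each control. That order within a library depends on the length taken for each gene, while the difference between groups does not. The mean log2 ratio differed by -0.49 between the groups, with no overlap. Stat2 over Stat3 was 1.91 ± 0.163 with CRISPRa and 0.618 ± 0.0406 in the controls (SD, n = 3), a log2 difference of 1.63. Socs1 over Socs3 was 1.14 ± 0.235 and 0.575 ± 0.117 (SD, n = 3), a log2 difference of 0.98. For each of these 3 pairs the exact two-sided permutation test gave p = 0.1, the smallest possible with 3 against 3, and 0.167 after Benjamini-Hochberg adjustment over the 5 pairs. Ifnar1 over Ifnar2 was 1.41 ± 0.122 and 1.28 ± 0.159 (SD, n = 3; exact permutation p = 0.4, adjusted 0.5). Jak1 over Tyk2 was 2.89 ± 0.175 and 2.93 ± 0.426 (SD, n = 3; exact permutation p = 1, adjusted 1). The receptor pair and the kinase pair overlapped between groups.

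**Figure D4:**
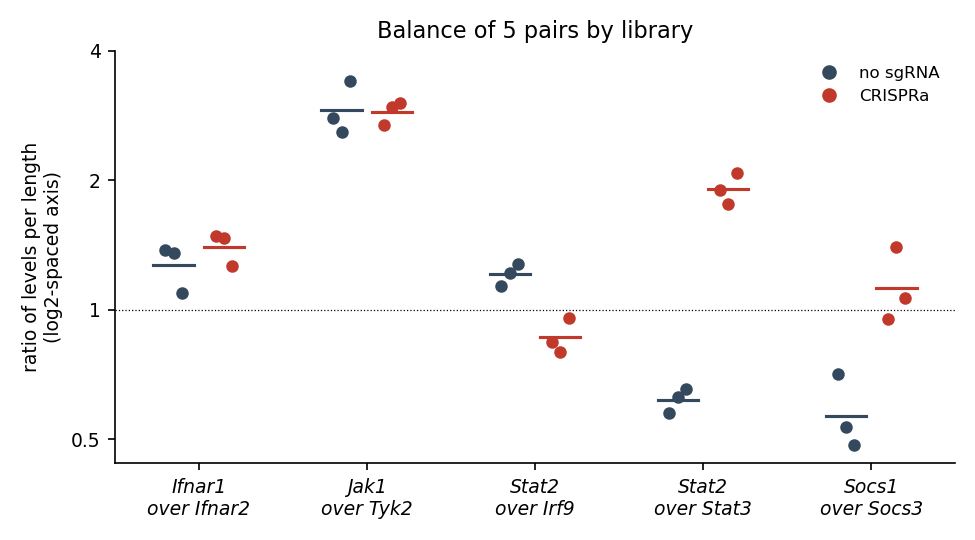
Ratio of counts per length for 5 pairs of genes in each library (axis spaced by log2), no sgRNA in dark blue, CRISPRa in red, with a line at the mean of the log2 values and a dotted line at equal levels. The groups separate for Stat2 over Irf9, Stat2 over Stat3 and Socs1 over Socs3 and overlap for Ifnar1 over Ifnar2 and Jak1 over Tyk2.

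The nearest tested gene on each side of a member, and tested genes that overlap it, were compared to see whether differences were shared along the chromosome. Of 20 such neighbours, 4 were called higher and 4 lower, where 9.47% of all tested genes were called higher and 9.25% lower; the median log2 fold change was 0.041 over the 20 and -0.0071 over all tested genes. All 3 neighbours of Irf9 rose: Psme2, which encodes a proteasome activator subunit, from 61.5 ± 6.52 to 96.8 ± 3.90 CPM, Rnf31, the catalytic subunit of the linear ubiquitin ligase, from 47.4 ± 3.73 to 67.5 ± 5.41 CPM, and Rec8, a meiotic cohesin subunit, from 43.8 ± 2.82 to 62.1 ± 2.01 CPM (SD, n = 3). Their log2 fold changes were 0.65, 0.51 and 0.50 (edgeR adjusted p 7.1e-05, 0.000812 and 0.000427), against 2.48 for Irf9 itself. Rnf31 overlaps Irf9 on the same strand and shares 2.28% of the exonic bases of Irf9. Whether reads of Irf9 entered the count of Rnf31 was not tested. Both neighbours of Socs1 were called in opposite directions, Clec16a at 0.28 (edgeR adjusted p 0.0403) and Rmi2 at -1.03 (edgeR adjusted p 0.0101). Clec16a kept its call in 1 of the 6 fits that left out a library, the one without no-sgRNA replicate 3. Neither neighbour of Stat2 was called, and Il23a, an interleukin-23 subunit gene 3.29 kb away, was at -0.071 (edgeR adjusted p 0.704). Beside Stat3, Stat5b fell by 0.39 on the log2 scale (edgeR adjusted p 0.00192), and Stat5a, which overlaps Stat3 on the opposite strand, was at -0.16 (edgeR adjusted p 0.277). Cdc37, a kinase chaperone gene 1.98 kb from Tyk2, was at -0.25 (edgeR adjusted p 0.0214). It lost its call in 4 of the 6 fits that left out a library, those without CRISPRa replicate 2 or 5 or no-sgRNA replicate 3 or 4. Pgm1, a glucose phosphate mutase gene, the nearest tested gene on the lower side of Jak1 at 1165 kb, was at -0.69 (edgeR adjusted p 0.00516). Its lowest count, 2012, was in CRISPRa replicate 5 and its highest, 5347, in no-sgRNA replicate 4, and without these 2 libraries it was at -0.33 (edgeR adjusted p 0.000292). The authors' deposited table puts Pgm1 at -0.53 with an adjusted p of 0.0755, above the threshold. Ifnar2 and Ifnar1 lie in a cluster of receptor genes with Il10rb and Ifngr2, and none of these 4 was called. Il10rb, the interleukin-10 receptor chain gene 0.574 kb from Ifnar2, was at 0.12 (edgeR adjusted p 0.534), and Ifngr2, an interferon-gamma receptor gene, 0.14 (edgeR adjusted p 0.246).

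The genes most like Irf9, the member with the largest fold change, were sought by the root mean square difference of log2 CPM, centred on the no-sgRNA mean, over the 6 libraries. Among 12849 genes with a mean of at least 1 CPM, the nearest were Lgals3bp (0.054), Cmpk2 (0.12), Parp9 (0.13), Parp12 (0.14) and Ifitm3 (0.16). Lgals3bp, a secreted glycoprotein gene, was at 494 ± 28.4 CPM under CRISPRa against 93.2 ± 2.89 CPM (SD, n = 3). Cmpk2, a mitochondrial nucleotide kinase gene, was at 96.8 ± 0.790 and 15.5 ± 0.451 CPM (SD, n = 3). The 6 points come from 2 groups of 3 libraries, which all these genes share.

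Other genes of the pathway were counted over 5 lists of 75 genes, of which 46 were tested and 12 called, 8 higher and 4 lower (26.1% of those tested, against 18.7% of all genes). No ligand was tested. Of 18 type I interferon genes, 17 had 0 counts in all 6 libraries, and Ifnz had 8 counts in CRISPRa replicate 3, 2 in no-sgRNA replicate 2 and 0 elsewhere. The limit that 3 counts set was 0.0876 to 0.101 CPM per library, for counting error only. For 17 of the 18, no reads were counted at this depth. How reads that match several genes were handled is not given in the sources used here. This limits what 0 counts mean for interferon genes of similar sequence.

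Among 12 related cytokine receptor genes, 7 were tested, 2 rose and 1 fell, with a median log2 fold change of 0.14. Over all tested genes, 9.47% were called higher and 9.25% lower. Il6st, which encodes gp130, the shared chain of interleukin-6 family receptors, rose from 113 ± 4.70 to 144 ± 2.32 CPM (SD, n = 3; log2 fold change 0.36, edgeR adjusted p 0.00117). Il6ra, the interleukin-6 binding chain, had 66, 54 and 106 counts with CRISPRa and 22, 2 and 4 in the controls (log2 fold change 2.89, SE 0.60, edgeR adjusted p 0.00397). Its counts are low and no-sgRNA replicate 2 stands above the other controls; the log2 fold change was 4.49 without that library. Il11ra1, the interleukin-11 receptor chain, fell from 54.1 ± 5.86 to 35.6 ± 7.85 CPM (SD, n = 3; log2 fold change -0.60, edgeR adjusted p 0.00547). Its extreme values were in the libraries that stood apart, 860 counts in CRISPRa replicate 5 and 1917 in no-sgRNA replicate 4, and without these 2 the log2 fold change was -0.34 (edgeR adjusted p 0.00447).

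Of 6 other JAK and STAT genes, 5 were tested, with a median log2 fold change of 0.15. Jak2, which serves the interferon-gamma and hormone-type cytokine receptors, rose from 50.7 ± 3.31 to 71.3 ± 8.89 CPM (SD, n = 3; log2 fold change 0.49, edgeR adjusted p 0.00186). Stat5b, a STAT of growth hormone and interleukin-2 type receptors, fell from 82.3 ± 3.44 to 62.9 ± 3.66 CPM (SD, n = 3). Jak3, Stat5a and Stat6 were not called, with log2 fold changes of 0.36, -0.16 and 0.15 (edgeR adjusted p 0.125, 0.277 and 0.22). Jak3 and Stat6 passed the threshold on the 4 libraries numbered 2 and 3. The authors' deposited table has them at 0.35 and 0.22 (adjusted p 0.0339 and 0.00887).

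Of 19 genes of the SOCS family and other brakes on the pathway, 18 were tested, with a median log2 fold change of -0.055. Of these 18 genes 2 rose, where 9.47% of all tested genes were called higher. Usp18, an ISG15 protease whose protein also binds IFNAR2 and blocks its signalling, had 3617, 3681 and 4420 counts with CRISPRa and 30, 32 and 13 counts in the controls. Its log2 fold change was 7.17 (SE 0.19, edgeR adjusted p 3.22e-13), larger than that of any member. Sh2b3, an adaptor that restrains JAK2, rose from 167 ± 11.9 to 197 ± 7.31 CPM (SD, n = 3; log2 fold change 0.24, edgeR adjusted p 0.0210), and kept its call in 2 of 6 fits that left out a library, those without CRISPRa replicate 5 or no-sgRNA replicate 3. The other SOCS family genes Cish, Socs2, Socs4, Socs5, Socs6 and Socs7 were not called, with log2 fold changes from -0.22 for Socs6 to 0.58 for Cish (edgeR adjusted p 0.0620 and 0.0658). Socs1 was thus the called gene among the 8 SOCS family genes tested in this fit. Socs6 also passed with a correction for gene length. The authors' deposited table has Socs6 at -0.25 (adjusted p 0.00303) and Cish at 0.61 (adjusted p 0.0258), both past the threshold.

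Of 22 genes often used as STAT3 targets, 17 were tested, 4 rose and 2 fell, with a median log2 fold change of 0.12, where 9.47% of all tested genes were called higher and 9.25% lower. Those that rose were Hif1a (0.40), a hypoxia regulator, Il6st (0.36), the cell-cycle gene Ccnd1 (0.28) and the survival gene Bcl2l1 (0.27), with edgeR adjusted p from 0.00117 to 0.0365. Birc5, a mitotic survivin gene, and Pim3, a kinase gene, fell by 0.49 and 0.36 on the log2 scale (edgeR adjusted p 0.00141 and 0.00159). Bcl2l1 kept its call in 2 of 6 fits that left out a library, those without CRISPRa replicate 2 or no-sgRNA replicate 4, and Ccnd1 in all but the fit without CRISPRa replicate 3. The other 11 tested genes of the list were not called, with log2 fold changes from -0.15 for Il4ra, an interleukin-4 receptor chain (edgeR adjusted p 0.339), to 1.14 for Cebpd, a transcription factor gene (edgeR adjusted p 0.0509). Cebpd had 59, 66 and 52 counts with CRISPRa and 32, 14 and 28 in the controls, without overlap in CPM, and it passed the threshold under several alternatives, DESeq2 and limma-voom among them. Bcl6, a transcriptional repressor gene, was at 0.36 (edgeR adjusted p 0.106), also without overlap. Myc, at -0.054 (edgeR adjusted p 0.576), had no overlap either and was lower with CRISPRa. The groups did not overlap for 36.4% of all tested genes. The authors' deposited table has Cebpd at 1.03, Bcl6 at 0.42 and Nampt, another gene of the list, at 0.23 (adjusted p 0.00798, 0.0117 and 0.0420). All are past the threshold there, as are 28.6% of its genes with an adjusted p.

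**Figure D5:**
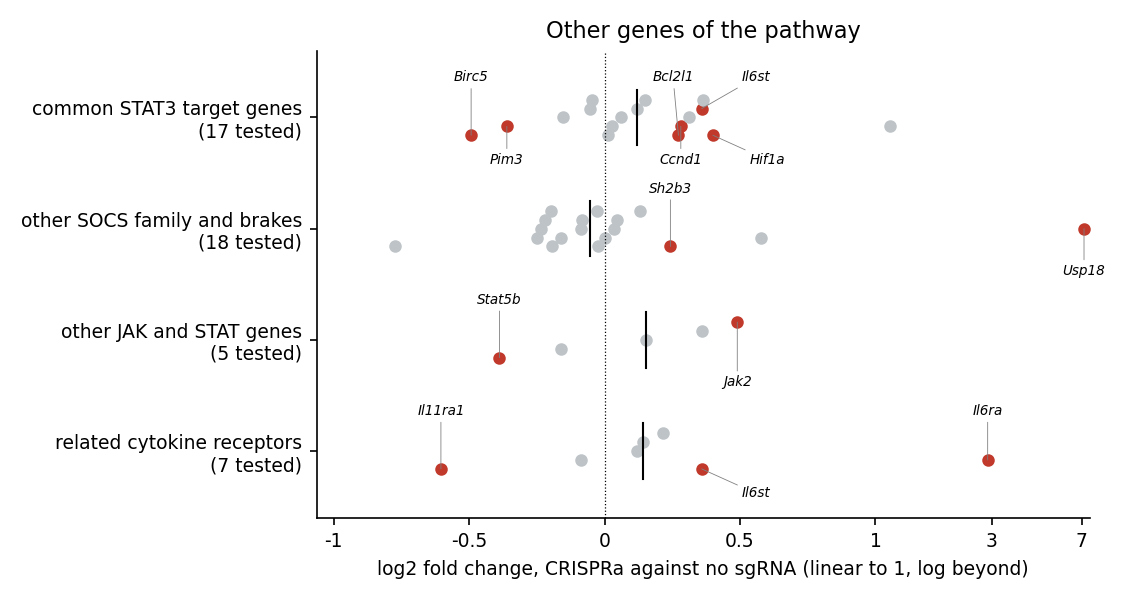
Log2 fold change of each tested gene of 4 pathway lists (axis linear to 1 and logarithmic beyond), red and named where the adjusted p is under 0.05, with a black line at each list's median. Usp18 lies at 7.17 and Il6ra at 2.89, and the medians lie between -0.055 and 0.15.

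The authors' deposited table compares 8 samples, 2 more than the counts used here. The direction of its contrast is not stated and was read as CRISPRa against no sgRNA from Irf9 and Stat2, and their sign there supports nothing. The authors' deposited table has 5 of the 9 genes at an adjusted p under 0.05, all 5 with a positive log2 fold change, where 28.6% of its genes with an adjusted p are past that threshold. The fifth is Jak1, which the authors' deposited table puts at a log2 fold change of 0.16 (adjusted p 0.0126). The authors' deposited table gives log2 fold changes of 2.46 for Irf9, 1.95 for Stat2, 1.24 for Socs1 (adjusted p 1.84e-09) and 0.36 for Stat3 (adjusted p 2.05e-08). In the authors' deposited table Tyk2 is at 0.18 (adjusted p 0.0966), Socs3 at 0.12 (adjusted p 0.608), Ifnar1 at 0.0033 (adjusted p 0.974) and Ifnar2 at -0.075 (adjusted p 0.650). The labels list 8 samples in all, which include the 6 libraries with counts, so the tables are not independent.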

How the data were processed

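Poly(A)-selected RNA of 8 samples, 4 per group, is listed in the labels, and each sample was placed in its group by its title. For 6 of them the authors deposited a table of read counts by gene, with exon lengths; replicate 1 of CRISPRa and replicate 5 of no sgRNA were not analysed here. STAR 2.5.1b, featureCounts, DESeq2 and the build mm10 are named in the submitters' processing notes, with no further settings. Of the counts between 1 and 20, 72.9% were even; whether both reads of a pair were counted is not given in the sources used here. The authors' deposited table of their own comparison holds a mean signal, log2 fold changes, a Wald score and p-values, per the file headers.

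The count fit used edgeR 4.0.16 in R 4.3.3 (filterByExpr, TMM scaling, glmQLFit and glmQLFTest, no covariate, Benjamini-Hochberg over all tested genes). The SE is the size of the log2 fold change divided by the square root of F. Pair ratios had 0.5 counts added. Coordinates are those of the count table, 1-based, and match GENCODE M21 (GRCm38) for all 9 genes. The fits were also run on simulated counts, drawn without libraries that stand apart, and no result here rests on that run. The members and lists were chosen with earlier results of these data known. Genes outside the 9 were named if called among the neighbours or in a pathway list, up to 8 per list, or if among the 5 most like the member of largest fold change; others named, such as Ifnz, Cebpd, Bcl6, Il4ra, Il10rb, Ifngr2, Il23a, Stat5a, Jak3, Stat6, the remaining SOCS genes and the markers, were chosen after their values were seen. Alternatives were scaling by RLE, by upper quartile or by total counts alone, a filter of 1 count in all or of 1 CPM in at least 3 libraries, DESeq2 1.42.0, limma-voom (limma 3.58.1), a correction for gene length (lowess trend per library, span 0.2), a threshold of 0.01, each library left out, a replicate block, and 2 counts added to pair ratios.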

Additional observations from a re-analysis of the deposited data

How the results depend on the processing

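Irf9, Stat2, Socs1 and Stat3 were called and higher with CRISPRa in all 17 alternatives run for them. The number of called members was 4 in every fit but 2, and from 4 to 4 with 1 library left out. It was 5 on the 4 libraries numbered 2 and 3, with the replicate block or without it, where Jak1 also passed (log2 fold change 0.19, edgeR adjusted p 0.0155 with the block and 0.0238 without). Equal numbers did not deviate together (correlations across 15117 genes of 0.00183 for number 2 and -0.0291 for number 3), so the block pairs nothing but a number, and the call of Jak1 came with the libraries used. The log2 fold change of Ifnar1 changed sign to -0.019 without the gene-length trend and ran from -0.0094 to 0.068 with 1 library left out. The Jak1 over Tyk2 difference, -0.0085 on the log2 scale, was 0.074 over the pairs of the replicate block and ran from -0.093 to 0.11 with 1 library left out. With a stricter adjusted threshold of 0.01, which by itself admits fewer genes, 5 neighbours were called in place of 8 and 9 pathway genes in place of 12. At 0.05 the called pathway genes ran from 9 (without CRISPRa replicate 3) to 17 (with the replicate block; 16 on the same 4 libraries without it). Depth limits Socs1 and Socs3 most, with 85 to 299 counts per library.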
